A study of Homo sapiens and Mus musculus with 12 samples.

Results

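The 7 transcription factor genes SIX3, SIX6, RAX, VAX1, VAX2, PAX6 and OTX2 pattern the early eye field and the optic stalk. They were taken by gene symbol from the human read counts and by gene description from the mouse read counts. All 7 were found among 60675 human gene identifiers, and all 7 orthologs among 47729 in mouse. RNA-seq had been done on 12 libraries of cortical organoids, which are aggregates of stem cells grown towards forebrain. The study asked what NOTCH2NL does there: NOTCH2NL genes are partial copies of the receptor gene NOTCH2 that arose in the human lineage. The human libraries came from H9 embryonic stem cells, 3 labelled KO NOTCH2NL and 3 labelled WT, at week 4 (day 28), each from a pool of 5 to 10 organoids. Both human groups had been grown with SB431542, an inhibitor of TGF-beta receptors, Dorsomorphin, an inhibitor of BMP receptors, IWR-1-Endo, an inhibitor of WNT signalling, and Cyclopamine, an inhibitor of the hedgehog transducer Smoothened, which was left out over the last days. The mouse libraries came from 46C embryonic stem cells, 3 from a stable line with NOTCH2NL-Sh_T197I (N2NL) and 3 from a stable line with an empty vector (EV), at day 6, each from a pool of 16 organoids. The headers give a single line code to all KO libraries (E5del42) and another to all WT libraries (E2del19), so genotype and line cannot be told apart, and the same holds for the transgene and its line in mouse. The 3 libraries of a group are separate pools of organoids of 1 line, and p-values measure the spread between such pools only.

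The eye field is the patch of anterior neural plate from which both optic vesicles grow. Its formation needs a set of homeobox genes that act together, among them RAX, SIX3, SIX6 and PAX6, in a plate in which OTX2 marks future forebrain and midbrain. SIX3 also keeps the front of the forebrain from taking on caudal fates and represses WNT genes, and in mouse it activates Shh in the ventral forebrain. Sonic hedgehog from the midline then divides each vesicle: VAX1 and VAX2 mark the ventral part and the stalk that carries the optic nerve, while PAX6 marks the cup. VAX1 and SIX3 are also used in the ventral telencephalon and hypothalamus, PAX6 in cortical radial glia, and OTX2 in choroid plexus and pigment epithelium, so none of these genes alone marks eye tissue. In bulk RNA, more cells that express a gene and more RNA of it per cell cannot be told apart.

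The human libraries held 15381409 to 16382938 counts each and the mouse libraries 16781742 to 20960391. Levels are given as CPM, the count of a gene scaled to the size of its library. A gene with no read in a library may stand at up to 0.195 CPM in human and 0.179 CPM in mouse, from 3 counts and for counting error only. NOTCH2NL had 0, 0 and 0 counts in KO 1 to 3 and 4, 5 and 3 counts in WT 1 to 3. In the authors' deposited table the NOTCH2NL row of the mouse data held 801, 709 and 740 normalized counts in N2NL 1 to 3 and 0 in each EV library. The second principal component of the human data held 22.1% of the variance. On it the library WT 1 (35) stood apart from WT 2 (-27.97) and WT 3 (-11.24). KO 3 (-23.04) likewise stood apart from KO 1 (11.46) and KO 2 (15.78). Fold changes without WT 1 are given for VAX1, OTX2, PAX6, RAX, LHX2 and NR2E1. EMX2, which marks dorsal telencephalon, was present in all human libraries, at 67.6 to 160 CPM in KO and 102 to 219 CPM in WT. Mouse libraries held Pou5f1, a marker of pluripotent cells, at 117 to 145 CPM in N2NL and 110 to 132 CPM in EV.

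In human organoids 2 of the 7 genes were higher in KO than in WT. SIX3 rose by 2.03 on the log2 scale, and VAX1, which was near 0 in WT, rose by 3.46. OTX2, PAX6, RAX and VAX2 did not pass the test, and SIX6 was too low to be tested. No member was lower. Across all genes 391 of 16956 tested were higher in KO, or 2.31%, 541 were lower, or 3.19%, and 5.5% were called in either direction (edgeR quasi-likelihood test, Benjamini-Hochberg adjusted p under 0.05). The 6 tested members had a median log2 fold change of 0.72, against -0.00465 over all genes tested.

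SIX3 (ENSG00000138083; GRCh38 chromosome 2, 44941898 to 44946077, plus strand) had 472, 400 and 615 counts in KO 1 to 3, or 30.7, 25.4 and 37.6 CPM. In WT 1 to 3 it had 102, 116 and 140 counts, or 6.61, 7.07 and 9.29 CPM. The lowest KO library lay well above the highest WT library, and within each group the highest library was less than 1.5 times the lowest (1.48 times in KO and 1.41 times in WT). The means were 31.2 ± 6.12 CPM in KO and 7.66 ± 1.43 CPM in WT (SD, n = 3 each). KO exceeded WT by 2.03 ± 0.19 (SE) on the log2 scale, with an edgeR adjusted p of 3.09e-04. Leaving out each of the 6 libraries in turn kept the call of SIX3, with fold changes from 1.88 to 2.19 and a highest edgeR adjusted p of 0.00446. In the authors' deposited table SIX3 stood at a log2 fold change of 1.74 with an adjusted p of 9.86e-21.

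The noncoding gene SIX3-AS1 starts beside SIX3 on the other strand, at chromosome 2, 44940154 to 44941873, and does not overlap it. SIX3-AS1 had 4.36, 5.78 and 6.67 CPM in KO 1 to 3 and 0.842, 2.01 and 1.79 CPM in WT 1 to 3. It rose with SIX3, by 1.85 ± 0.33 on the log2 scale (edgeR adjusted p = 0.0129), and its groups did not overlap. The next tested gene on the other side, the noncoding AC012354.6, had 2.28, 2.22 and 3.73 CPM in KO and 1.62, 1.04 and 2.19 CPM in WT, a log2 fold change of 0.77 ± 0.35 (edgeR adjusted p = 0.228). Over the 6 human libraries the genes whose pattern lay nearest to that of SIX3 were the potassium channel gene KCNA5, the noncoding RP11-485F13.1 and the mitochondrial histidine tRNA gene MT-TH. Likeness was the root mean square difference of centred log2 CPM, which was 0.181, 0.205 and 0.249 for these genes in that order. The median over the tested genes was 1.05. The 3 genes were picked as the nearest, so their place below that median was fixed by the choice. MT-TH had only 32, 22 and 45 counts in KO and 7, 4 and 9 counts in WT. KCNA5 had 3.77, 3.30 and 4.83 CPM in KO and 0.972, 1.10 and 1.46 CPM in WT.

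VAX1 (ENSG00000148704; GRCh38 chromosome 10, 117128521 to 117138301, minus strand) encodes a homeodomain protein of the optic stalk, optic chiasm and basal forebrain. Of the 7 members 5 have a promoter entry in the RefSeq table (GRCh38.p14), SIX3 and VAX2 not among them. VAX1 is the called member with an entry, and its upstream bases are shown so that the start of the gene that rose can be read. Capitals mark TAAT on either strand (TAAT or ATTA), the core that many homeodomain proteins bind. The stretch is chr10:117138302-117138520 on the minus strand and stops before the GENCODE start.
VAX1: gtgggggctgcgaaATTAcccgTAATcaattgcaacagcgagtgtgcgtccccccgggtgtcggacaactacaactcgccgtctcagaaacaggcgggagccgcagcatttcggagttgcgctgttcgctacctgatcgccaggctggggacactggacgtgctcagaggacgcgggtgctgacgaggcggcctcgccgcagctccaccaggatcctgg
TAAT occurred 2 times in the 250 bases before the RefSeq start of VAX1, and 47.4% of the 35116 promoters of that table hold it in the same window. None of TAATTA (a paired homeodomain core that contains TAAT, in 4.35% of promoters), TCAGGTT (2.79%), GTGGGAA (the site of the Notch effector RBPJ, 5.43%), GGGCGG (the GC box, 42.6%) and TATAAA (the TATA box, 10.7%) was found there on either strand. A match or its lack describes these letters only.

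VAX1 had 78, 99 and 151 counts in KO 1 to 3, or 5.07, 6.29 and 9.24 CPM. In WT 1 to 3 it had 0, 11 and 18 counts, or 0, 0.670 and 1.19 CPM. All KO libraries lay above all WT libraries, and WT 1 had no VAX1 read. The means were 6.87 ± 2.14 CPM in KO and 0.622 ± 0.599 CPM in WT (SD, n = 3 each). KO exceeded WT by 3.46 ± 0.70 on the log2 scale, with an edgeR adjusted p of 0.0371. Leaving out each library in turn, VAX1 was called only where WT 1 was dropped (2.88, edgeR adjusted p = 0.00110), and in the other 5 fits the adjusted p ran from 0.0694 to 0.122. The log2 fold change was lowest in that fit and highest, at 4.29, without WT 3. DESeq2 gave an adjusted p of 0.0469, and the authors' deposited table gives 0.155 with a log2 fold change of 0.42. The direction was the same in every one of these fits.

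The gene beside VAX1, SHTN1, which encodes a protein of axon growth (chromosome 10, 116881482 to 117126586), was also called. SHTN1 had 76.3, 96.5 and 96.6 CPM in KO 1 to 3 and 43.7, 54.4 and 50.4 CPM in WT 1 to 3, a log2 fold change of 0.86 ± 0.12 (edgeR adjusted p = 0.00407). On the other side RP11-129M16.4 stood at -0.36 ± 0.31 (edgeR adjusted p = 0.528). The genes nearest to VAX1 in pattern over the 6 libraries were TMEM72 (0.640), RP11-138B4.1 (0.801) and CRH, the corticotropin-releasing hormone gene (0.806, root mean square log2 difference). The median over tested genes was 2.15, and the nearest genes lie below it by the way they were picked. CRH had 4.88, 4.39 and 4.71 CPM in KO and 0.130, 0.305 and 0.332 CPM in WT.

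**Figure D1:**
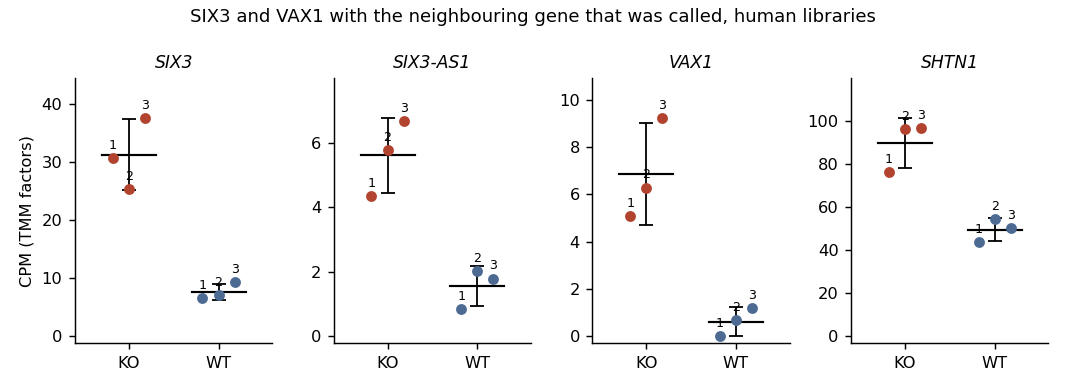
Levels in CPM with TMM factors (y axis, linear) of SIX3, SIX3-AS1, VAX1 and SHTN1 in the 3 KO and 3 WT human libraries (points, numbered by replicate), with the mean (line) and SD (bar). In each panel the 3 KO libraries lie above the 3 WT libraries, and VAX1 is at 0 in WT 1.

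OTX2 (ENSG00000165588; GRCh38 chromosome 14, 56799905 to 56810479, minus strand), a homeobox gene of forebrain and midbrain, choroid plexus, pigment epithelium and photoreceptor precursors, was the member with the highest mean level per kilobase of exon, while PAX6 was the highest in CPM. The table holds 2 entries for it. The upstream bases of the outer one, chr14:56810480-56810729 on the minus strand (RefSeq, GRCh38.p14), are shown for comparison with VAX1, with TAAT on either strand again in capitals.
OTX2: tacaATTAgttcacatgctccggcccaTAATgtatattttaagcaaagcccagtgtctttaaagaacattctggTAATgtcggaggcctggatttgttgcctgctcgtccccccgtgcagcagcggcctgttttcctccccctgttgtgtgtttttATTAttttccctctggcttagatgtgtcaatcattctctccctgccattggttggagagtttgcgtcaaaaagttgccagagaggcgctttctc
This window holds TAAT 4 times and none of the other 5 motifs. The window of the other entry, chr14:56805668-56805917, lies inside the gene and holds TAAT 1 time and none of the other 5.

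OTX2 had 1716, 2602 and 1935 counts in KO 1 to 3, or 111.5, 165 and 118 CPM. In WT 1 to 3 it had 407, 1488 and 1158 counts, or 26.4, 90.7 and 76.8 CPM. The groups did not overlap, as for SIX3 and VAX1 and for no other member. All KO libraries lay above all WT libraries for 3 of the 6 tested members, and for 14.1% of all genes tested. The WT libraries differed among themselves by 3.44 times, with WT 1 the lowest. The means were 132 ± 29.3 CPM in KO and 64.6 ± 33.8 CPM in WT (SD, n = 3 each). The difference of 1.03 ± 0.49 on the log2 scale missed the threshold (edgeR adjusted p = 0.296). Without WT 1 it was 0.65 (adjusted p = 0.0784), and it was called under none of the 10 other settings.

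WT 1 was the lowest WT library for OTX2 and for all 8 listed genes of the cortical hem and choroid plexus. TTR and KCNJ13 were the 2 of these 8 that had the same order of libraries as OTX2 within both groups. TTR, the transthyretin gene that choroid plexus makes in bulk, had 1320, 4116 and 3438 CPM in KO 1 to 3 and 252, 2108 and 1092 CPM in WT 1 to 3. KCNJ13, a potassium channel gene of choroid plexus and pigment epithelium, had 21.1, 34.4 and 32.4 CPM in KO and 2.398, 13.7 and 8.56 CPM in WT. MITF, the pigment epithelium transcription factor gene, had 12.8, 20.8 and 14.4 CPM in KO and 4.02, 10.9 and 8.36 CPM in WT. In TTR, KCNJ13 and MITF, as in OTX2, WT 1 was the lowest and WT 2 the highest WT library, and KO 2 was the highest and KO 1 the lowest KO library. None of the 3 passed the test (edgeR adjusted p = 0.422 for TTR, 0.158 for KCNJ13 and 0.135 for MITF), and they were chosen for their pattern after their values were seen. MITF is in the list of eye field factors, not in that of hem and choroid plexus. The 8 hem and choroid plexus genes summed to 1500 to 4340 CPM in KO and 340 to 2250 CPM in WT. Of these 8, MSX1 was higher (edgeR adjusted p = 0.0467; called in 1 of the 6 fits without a library) and none was lower. The part of these cells in the level of OTX2 was not tested.

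**Figure D2:**
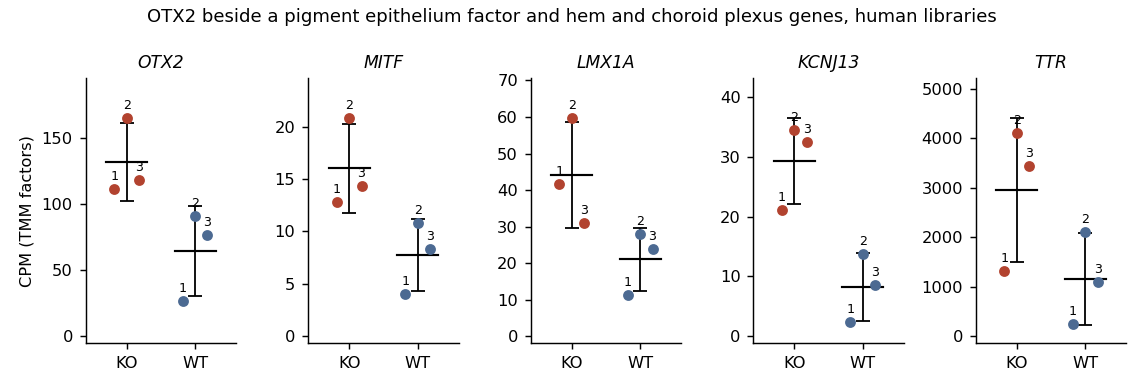
Levels in CPM with TMM factors (y axis, linear, own scale per panel) of OTX2, MITF, LMX1A (a hem transcription factor gene), KCNJ13 and TTR in the 3 KO and 3 WT human libraries (points, numbered by replicate), with mean (line) and SD (bar). WT 1 is the lowest and WT 2 the highest WT library in every panel, and KO 2 is the highest KO library.

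PAX6 (ENSG00000007372; chromosome 11, 31784779 to 31818062, minus strand), which encodes a paired-box and homeodomain protein of the eye field and of cortical radial glia, was high in every library. It had 270.9, 234 and 205 CPM in KO 1 to 3 and 221 CPM, 125 CPM and 185 CPM in WT 1 to 3. KO 3 lay below WT 1, so the groups overlapped. The means were 237 ± 32.9 CPM in KO and 177 ± 48.6 CPM in WT (SD, n = 3 each). The log2 fold change was 0.42 ± 0.21 (edgeR adjusted p = 0.298). Without WT 1 it was 0.61 (edgeR adjusted p = 0.114). The noncoding PAUPAR, which starts inside the PAX6 locus, stood at -0.19 ± 0.52 (edgeR adjusted p = 0.867).

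RAX (ENSG00000134438; chromosome 18, 59267035 to 59274086, minus strand), the homeobox gene whose loss leaves mouse embryos without eyes, was low in both groups. It had 1.30, 1.40 and 1.22 CPM in KO 1 to 3 and 0.389, 1.89 and 1.06 CPM in WT 1 to 3. The KO libraries were close together and lay within the range of the WT libraries. Its log2 fold change of 0.22 ± 0.48 (edgeR adjusted p = 0.828) turned to -0.18 without WT 1. VAX2 (ENSG00000116035; chromosome 2, 70900590 to 70965373, plus strand), which marks ventral retina, had 1.30, 1.14 and 3.06 CPM in KO 1 to 3 and 1.75, 2.31 and 1.33 CPM in WT 1 to 3. The groups overlapped, KO 3 being the highest of the 6 libraries, with a log2 fold change of 0.03 ± 0.42 (edgeR adjusted p = 0.977). VAX2 shares 56.6% of its exon bases with ATP6V1B1, a proton pump subunit gene on the same strand, so its counts are uncertain. SIX6 (ENSG00000184302; chromosome 14, 60508951 to 60512850, plus strand), a close relative of SIX3 in retina and pituitary, had 0, 5 and 2 counts in KO 1 to 3 and 0, 1 and 0 counts in WT 1 to 3. These counts were below what the filter on low counts requires, and no fold is given.

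**Figure D3:**
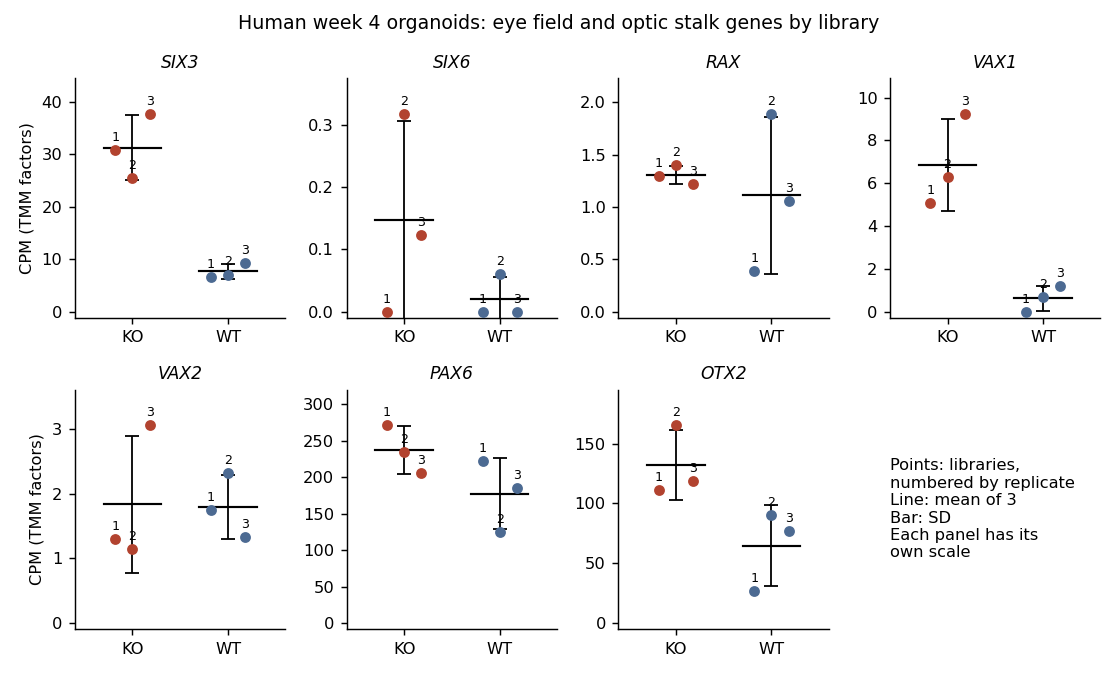
Levels in CPM with TMM factors (y axis, linear, own scale per panel) of the 7 genes in the 3 KO and 3 WT human libraries (points, numbered by replicate), with mean (line) and SD (bar, ending at the axis for SIX6). SIX3, VAX1 and OTX2 show no overlap of KO with WT, and the other 4 genes do.

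SIX3 and SIX6 are paralogs, as are VAX1 and VAX2, and reads from such pairs could be split between them. In GENCODE 29 transcripts the longest identical run was 29 bases between SIX3 and SIX6 and 41 bases between VAX1 and VAX2. Of the 25-base words of SIX3 transcripts 5 of 2490 also occur in SIX6, and of those of VAX1 22 of 5759 occur in VAX2. Within each pair 1 gene was called and the other was at or below 3.06 CPM in every human library.

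Levels were compared between genes as CPM per kilobase of the union of a gene's exons. In KO the order of mean levels per kilobase was OTX2 (40.3), SIX3 (12.4), PAX6 (11.4), VAX1 (1.19), VAX2 (0.619), RAX (0.351) and SIX6 (0.0526). In WT it was OTX2 (19.7), PAX6 (8.52), SIX3 (3.03), VAX2 (0.607), RAX (0.299), VAX1 (0.107) and SIX6 (0.00729). SIX3 ranked above PAX6 in KO, where their ranges overlapped (10.1 to 14.9 for SIX3 and 9.87 to 13 for PAX6, CPM per kilobase). In WT it lay below PAX6 without overlap (2.62 to 3.68 for SIX3 and 6.01 to 10.6 for PAX6). VAX1 lay above VAX2 in KO and below it in WT, with ranges that overlapped in KO (0.876 to 1.6 for VAX1 and 0.386 to 1.03 for VAX2) and did not in WT (0 to 0.206 for VAX1 and 0.448 to 0.782 for VAX2). In WT the ranges of OTX2 and PAX6 also overlapped, as did those of VAX2 and RAX, of RAX and VAX1 and of VAX1 and SIX6. The other neighbours in either order did not overlap. The exon union of PAX6, 20812 bases, is the longest of the 7 and covers many alternative transcripts, which lowers its level per kilobase. VAX2 shares 56.6% of its exon bases with ATP6V1B1, and its level was divided by all of its 2961 exon bases. Its level per kilobase is therefore uncertain, and so is its order beside VAX1 and RAX in either group.

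**Figure D4:**
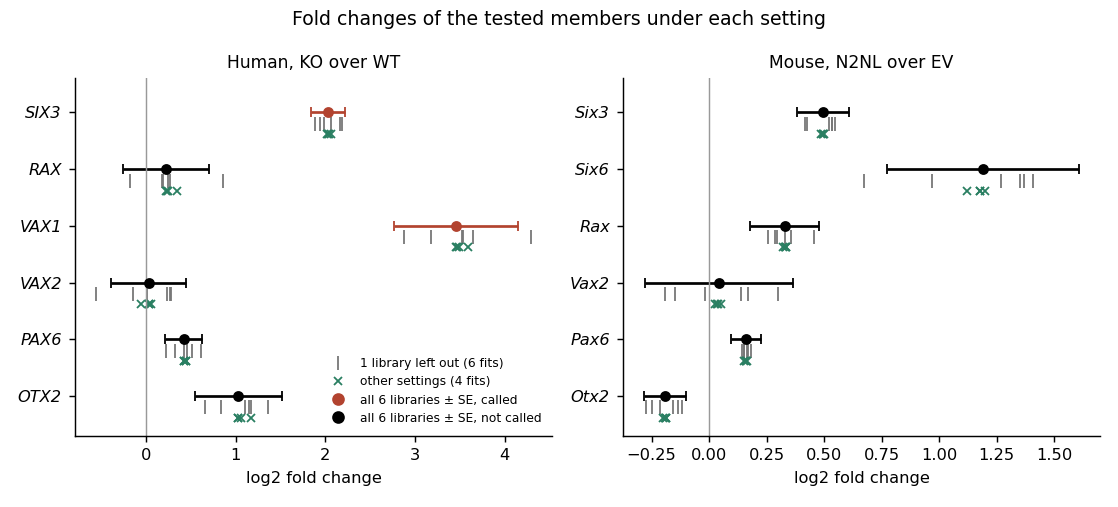
Log2 fold changes (x axis) of the members that were tested, KO over WT in human (left) and N2NL over EV in mouse (right). Points with SE bars come from all 6 libraries of a species (red where called, black where not), ticks from the 6 fits that leave out 1 library and crosses from the 4 other settings. SIX3 stays between 1.88 and 2.19 in the fits without a library, while the VAX2 values fall on both sides of 0.

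The other eye field and optic vesicle transcription factors did not share the rise of SIX3 as a group. Of 22 genes 14 were tested, 1 was higher, none was lower and 13 were not called, with a median log2 fold change of -0.12 (3 passed an unadjusted p under 0.05, and DESeq2 called 2 higher and 1 lower). The 22 genes summed to 715 to 859 CPM in KO and 898 to 1020 CPM in WT, without overlap. LHX2, the LIM homeobox partner of the eye field and of cortex, had 252, 321 and 122 CPM in KO 1 to 3 and 333, 140 and 180 CPM in WT 1 to 3, with overlapping groups and a log2 fold change of 0.09 ± 0.49 (edgeR adjusted p = 0.940). NR2E1, which maintains retinal and cortical progenitors, stood at 0.18 ± 0.41 (edgeR adjusted p = 0.839). Without WT 1, LHX2 stood at 0.53 and NR2E1 at 0.62 (edgeR adjusted p = 0.596 and 0.328). The OTX2 paralog OTX1 stood at 0.29 ± 0.26 (edgeR adjusted p = 0.559), the optic stalk gene PAX2 at -0.73 ± 0.49 (adjusted p = 0.446) and SIX2 at -1.04 ± 0.72 (adjusted p = 0.433). Some markers of differentiated eye tissue were at or near 0. RCVRN, the photoreceptor gene recoverin, had 4, 12 and 14 counts in KO and 1, 0 and 7 counts in WT. RLBP1, a Müller glia and pigment epithelium gene, had at most 4 counts in any library, and the lens crystallin gene CRYAA had none. Other markers were present. RPE65, listed with pigment epithelium, had 75, 192 and 278 counts in KO and 8, 63 and 61 counts in WT. Its groups did not overlap, and it was not called (2.02 ± 0.76, edgeR adjusted p = 0.198). BEST1, of the same list, had 64, 110 and 90 counts in KO and 92, 89 and 88 counts in WT. POU4F2, listed with neural retina, had 58, 39 and 184 counts in KO and 180, 326 and 213 counts in WT. The 8 neural retina genes summed to 7.18 to 16.9 CPM in KO and 16.0 to 23.2 CPM in WT. Of 6 tested pigment epithelium genes TYRP1, a melanin enzyme gene, was higher (1.63, 1.84 and 1.83 CPM in KO and 0, 0.305 and 0.0663 CPM in WT) and PMEL, a melanosome matrix gene, was lower (1.76, 0.826 and 0.795 CPM in KO and 3.24, 5.42 and 3.12 CPM in WT). The 8 listed pigment epithelium genes summed to 14.2 to 31.4 CPM in KO and 11.3 to 17.6 CPM in WT. Without 1 library, TYRP1 was called in 5 of 6 fits and PMEL in 2.

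SIX3 acts as a repressor with co-repressors of the TLE family, and proteins of its family act with EYA phosphatases. All 12 such cofactor genes were tested, 2 were higher, none was lower and 10 were not called (median log2 fold change 0.04). TLE1 had 193, 184 and 185 CPM in KO 1 to 3 and 123.4, 115 and 134 CPM in WT 1 to 3, without overlap (0.59 ± 0.08, edgeR adjusted p = 0.00442). EYA4 had 10.1, 11.7 and 10.9 CPM in KO 1 to 3 and 2.66, 4.45 and 4.71 CPM in WT 1 to 3, also without overlap (1.46 ± 0.23, edgeR adjusted p = 0.00652). Both kept their calls in all 6 fits without a library, and TLE4 stood at 0.09 ± 0.08 (edgeR adjusted p = 0.541).

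Of the signals that pattern eye field and optic stalk 15 of 22 genes were tested, 1 was higher, 1 lower and 13 were not called by edgeR (median log2 fold change 0.02). Of the 15, 7 had an unadjusted p under 0.05, and DESeq2 called 3 higher and 3 lower. BMP7, a ligand needed for eye development in mouse, had 59.4, 78.5 and 47.5 CPM in KO 1 to 3 and 20.5, 33.3 and 30.1 CPM in WT 1 to 3 (1.14 ± 0.23, edgeR adjusted p = 0.0377). CHRD, which encodes the BMP antagonist chordin, had 5.65, 4.19 and 5.57 CPM in KO 1 to 3 and 9.79, 14.9 and 10.2 CPM in WT 1 to 3 (-1.17 ± 0.22, edgeR adjusted p = 0.0158). NOG, the gene of another BMP antagonist, went the other way. It had 7.215, 6.291 and 5.995 CPM in KO and 4.925, 2.681 and 2.72 CPM in WT, and was not called (0.92 ± 0.27, edgeR adjusted p = 0.0757). The ligand gene BMP4 was not called either (2.46 ± 0.79, edgeR adjusted p = 0.125). Without 1 library BMP7 was called in 2 of 6 fits and CHRD in 3. SHH, the ligand that induces VAX genes in the ventral optic vesicle, was low, at 0.650, 0.318 and 0.306 CPM in KO 1 to 3 and 1.04, 1.28 and 1.73 CPM in WT 1 to 3. Its KO libraries lay below its WT libraries, and it did not pass (-1.65 ± 0.45, edgeR adjusted p = 0.0586).

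Some markers of ventral telencephalon, the DLX genes and ISL1, moved with SIX3 and VAX1. Of 8 tested, 5 were higher in KO (DLX1, DLX2, DLX5, DLX6 and ISL1), none was lower and 3 were not called. The median log2 fold change was 3.50. The 3 not called were GAD2 (1.07 ± 0.29, edgeR adjusted p = 0.0895), GSX2 (1.00 ± 0.52, edgeR adjusted p = 0.327) and GAD1 (-0.13 ± 0.22, edgeR adjusted p = 0.789). GAD1 stood at 48.9 to 67.5 CPM in KO and 45.9 to 81.8 CPM in WT. LHX6 and LHX8 were too low to be tested. The 10 listed genes summed to 296 to 470 CPM in KO and 78.9 to 136 CPM in WT. DLX2, a homeobox gene of inhibitory neuron progenitors, had 43.3, 41.2 and 69.6 CPM in KO 1 to 3 and 1.49, 0.792 and 1.73 CPM in WT 1 to 3, and KO 3 was the highest library for DLX2, SIX3 and VAX1 alike. Leaving out each library in turn, DLX2, DLX5 and ISL1 were called in all 6 fits, DLX1 in 4 and DLX6 in 1. Of the 7 hypothalamus and diencephalon genes, those that mark hypothalamus were at or near 0: NKX2-2 had no count, NKX2-1 and SIM1 had at most 1 count per library, and OTP had 7, 2 and 3 counts in KO and 17, 0 and 0 counts in WT. The 3 tested genes of that list, TCF7L2 (32.2 to 36.2 CPM in KO and 36.0 to 48.2 CPM in WT), LHX5 (16.9 to 27.7 CPM in KO and 18.7 to 53.6 CPM in WT) and IRX3 (4.58 to 17.8 CPM in KO and 7.91 to 18.2 CPM in WT), were present in every library. They were not called by edgeR or DESeq2, with 0 at an unadjusted p under 0.05, and the list summed to 57.9 to 74.0 CPM in KO and 63.7 to 109 CPM in WT. Dorsal telencephalon genes, 7 tested, had none called (0 at an unadjusted p under 0.05 and 0 by DESeq2; median -0.09), and they summed to 434 to 954 CPM in KO and 464 to 1060 CPM in WT. The sums of lens and surface epithelium (6.57 to 12.1 CPM in KO and 7.43 to 9.01 CPM in WT), midbrain and hindbrain (35.4 to 125 CPM in KO and 99.2 to 204 CPM in WT) and pluripotent cell genes (3.43 to 8.75 CPM in KO and 5.18 to 14.4 CPM in WT) overlapped. Those of neural crest and mesenchyme genes did not (32.4 to 53.4 CPM in KO and 18.3 to 31.4 CPM in WT). Single called genes of these lists were PAX8 (-2.01 ± 0.31, edgeR adjusted p = 0.0162), PDGFRB (1.13 ± 0.25, adjusted p = 0.0402) and LUM (-2.04 ± 0.40, adjusted p = 0.0181), which were called in 4, 0 and 3 of the 6 fits without a library. The part of any of these cells in the levels of SIX3 and VAX1 was not tested.

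In mouse organoids no member was called by edgeR: 6 of the 7 were tested, and 4 of them had an unadjusted p under 0.05 (Six3, Six6, Rax and Pax6, all above 0 in fold change). Over all 16682 genes tested 2 were called, or 0.012%, and 7.45% had an unadjusted p under 0.05. DESeq2 called none of the 6 but gave 4 of them no adjusted p. Six3 was among these 4 (DESeq2 unadjusted p = 2.3e-04), so DESeq2 did not judge it. All 3 N2NL libraries lay above all 3 EV libraries for the same 4 genes, and for 7.39% of all genes tested, while no member lay wholly below, against 5.31% of all genes. The median log2 fold change was 0.24, against -0.00585 over all genes tested and 0.39 for the tested dorsal telencephalon genes.

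Six3 had 452, 378 and 446 counts in N2NL 1 to 3, or 22.5, 22.5 and 26.4 CPM. In EV 1 to 3 it had 334, 320 and 355 counts, or 18.1, 15.2 and 17.4 CPM. The groups did not overlap. The means were 23.8 ± 2.25 CPM in N2NL and 16.9 ± 1.54 CPM in EV (SD, n = 3 each). The log2 fold change was 0.50 ± 0.11 (edgeR unadjusted p = 6.04e-04, adjusted p = 0.240). The result depended on the method: with no filter on low counts Six3 was called (edgeR adjusted p = 0.0118), and in the authors' deposited table its adjusted p is 0.0326. Without 1 library its fold change ran from 0.416 to 0.549 on the log2 scale and was called in none of the 6 fits.

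Six6 had 1.84, 0.773 and 0.888 CPM in N2NL 1 to 3, from 37, 13 and 15 counts, and 0.651, 0.569 and 0.342 CPM in EV 1 to 3, from 12, 12 and 7 counts. N2NL 1 was far above the other 5 libraries, and the difference of 1.19 ± 0.42 on the log2 scale missed the threshold (edgeR adjusted p = 0.549). Rax had 8.82, 8.44 and 8.11 CPM in N2NL and 6.02, 6.35 and 7.82 CPM in EV (0.33 ± 0.15, edgeR adjusted p = 0.671). Rax was seen in every library with at least 6.02 CPM. The 2 species differ in stage, line and genome, and their levels were not compared. Pax6 had 111, 113 and 116 CPM in N2NL 1 to 3 and 100.4, 100.5 and 104 CPM in EV 1 to 3. The highest library was 1.04 times the lowest in N2NL and 1.03 times in EV, and the groups did not overlap, with a log2 fold change of 0.16 ± 0.07 (edgeR adjusted p = 0.628).

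Otx2 was the 1 tested member with a fold change below 0. It had 118, 136 and 142 CPM in N2NL 1 to 3 and 133, 163 and 157 CPM in EV 1 to 3, with overlapping groups (-0.19 ± 0.09, edgeR adjusted p = 0.674). Vax2 had 1.59, 1.96 and 0.888 CPM in N2NL 1 to 3 and 1.63, 1.04 and 1.66 CPM in EV 1 to 3 (0.04 ± 0.32, edgeR adjusted p = 0.990). Vax1 had 2, 2 and 1 counts in N2NL and 5, 1 and 0 counts in EV, too few to be tested. The antisense genes Vax2os (0.59 ± 0.46) and Otx2os1 (-0.12 ± 0.45) were not called (edgeR adjusted p = 0.843 and 0.979).

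**Figure D5:**
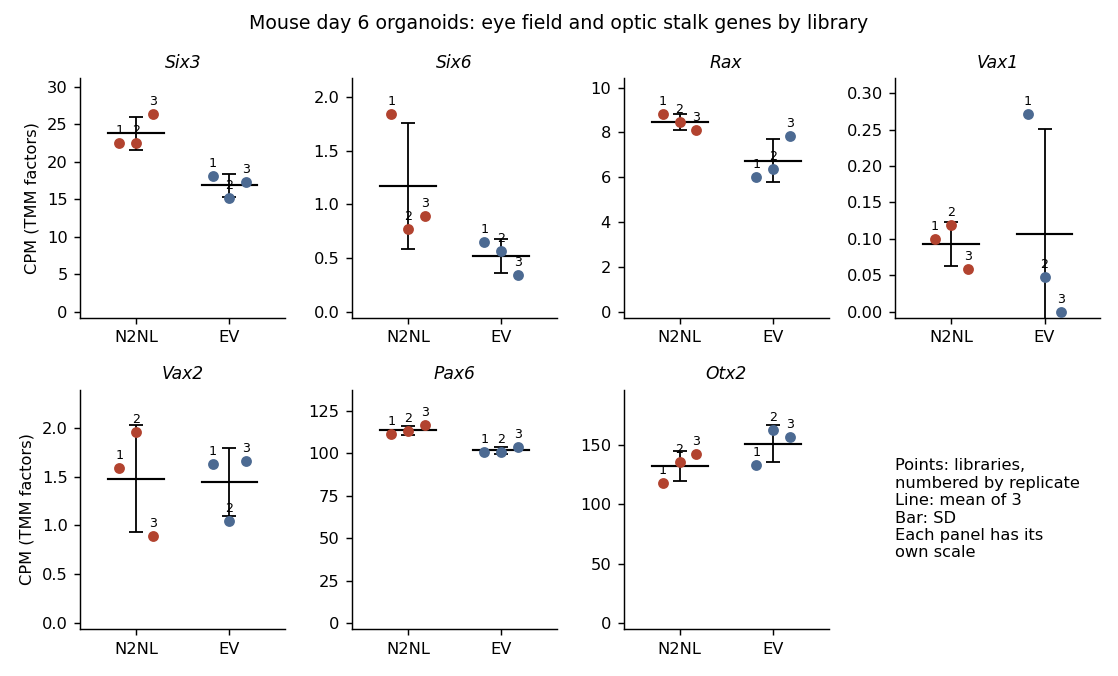
Levels in CPM with TMM factors (y axis, linear, own scale per panel) of the 7 mouse orthologs in the 3 N2NL and 3 EV libraries (points, numbered by replicate), with mean (line) and SD (bar, ending at the axis for Vax1). Six3, Six6, Rax and Pax6 show no overlap of N2NL with EV, and the other 3 genes do.

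Of the 106 other listed genes tested in mouse, none was called by edgeR, 23 had an unadjusted p under 0.05, 19 of them above 0, and DESeq2 called 2 higher. Among the other eye field factors 0 of 17 tested were called (median 0.18; 6 at an unadjusted p under 0.05 and 1 by DESeq2). Lhx2 had 116, 102 and 94.8 CPM in N2NL 1 to 3 and 79.9, 70.7 and 72.7 CPM in EV 1 to 3, without overlap (0.49 ± 0.09, edgeR adjusted p = 0.116). Its result depended on the method: DESeq2 called it (adjusted p = 0.00323). So did edgeR with no filter (adjusted p = 8.93e-06) and with the replicate block (adjusted p = 0.0337). Library size alone did not, and 1 of the 6 fits without a library did. Nr2e1 stood at 0.34 ± 0.08 (edgeR adjusted p = 0.274) and Pax2 at 0.52 ± 0.21 (adjusted p = 0.615). Six2 (0.15 ± 0.18), Otx1 (0.000851 ± 0.15), Tle1 (0.14 ± 0.08) and Tle4 (0.13 ± 0.07) were not called either (edgeR adjusted p = 0.906, 1.00, 0.740 and 0.699). The 12 cofactor genes and the 20 tested signal genes had medians of 0.10 and 0.09. Several summed levels lay apart and higher in N2NL, beside Six3. Those of the other eye field factors were 708 to 788 CPM in N2NL and 641 to 693 CPM in EV. Those of the cofactors were 988 to 1030 CPM in N2NL and 931 to 980 CPM in EV. Those of the dorsal telencephalon genes were 334 to 339 CPM in N2NL and 243 to 271 CPM in EV, and those of the pigment epithelium genes 11.2 to 15.3 CPM in N2NL and 5.62 to 9.28 CPM in EV. All 6 tested dorsal telencephalon genes, Lhx2 among them, had an edgeR unadjusted p under 0.05 and a fold change above 0 (median 0.39). A rise of this kind was thus not particular to the members. Ventral telencephalon genes summed to 31.6 to 34.2 CPM in N2NL and 29.4 to 33.2 CPM in EV, and hem and choroid plexus genes to 324 to 438 CPM in N2NL and 362 to 474 CPM in EV, with overlap. Rcvrn and Crx, which mark photoreceptors, had at most 6 counts in any mouse library. The part of these cells in the level of Six3 was not tested.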

How the data were processed

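RNA was poly(A) selected and made into libraries with a strand-specific Ion Total RNA-seq kit, per the labels' protocols. The deposited count tables hold raw reads per Ensembl gene. Tools listed in the submitters' processing notes, without their roles, are HTSeq 0.6.1p1, STAR 2.4.0, DESeq2, Trimmomatic 0.36 and Bowtie2 2.3.3.1. Whether counting used strand is not stated there. The authors' deposited comparison tables hold normalized counts rounded to whole numbers, standard errors and statistics (taken as a score), p-values and adjusted p-values, and for human a log2 fold change that is far smaller than the ratio of the normalized values for low genes such as VAX1. In the human table the normalized columns numbered 1 and 3 follow the raw columns numbered 3 and 1 within each group; replicate numbers here are those of the raw counts. Every column was assigned to a sample (0 left over). Lines of the mouse count table that name no gene were left out (26.64% to 33.67% of reads aligned to several places, 5.77% to 6.5% outside genes and 0.77% to 0.91% ambiguous).

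Each species was fitted alone with edgeR 4.0.16 in R 4.3.3 (filterByExpr, TMM factors, robust quasi-likelihood F test, group as the only term, Benjamini-Hochberg over all genes tested, threshold 0.05), after a check on simulated counts. Levels are CPM with TMM factors, mean ± SD of 3 libraries. The ± of a fold is its size over the square root of the F statistic. Human coordinates are GENCODE 29 (GRCh38), promoter bases RefSeq. With 3 libraries a group, the smallest two-sided p of an exact permutation test is 0.1, and none was run. Alternatives were library size alone, DESeq2 1.42.0, no filter, the replicate number as a block and leaving out each library. The members and gene lists were chosen with earlier results of these data known. Named genes are all members; of each list the called genes (up to 6) and the partners and paralogs of members; the 3 genes nearest in pattern to a called member; and genomic neighbours. Some genes that this rule names are not reported here. A comparison of the members' proteins had been planned and was not made, and TAAT was added to the motifs after the data were seen.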

Additional observations from a re-analysis of the deposited data

How the results depend on the processing

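SIX3 was called higher in KO under all 10 alternatives, and TLE1 and EYA4 too. The human count of called genes (932) was 2155 with no filter on low counts, 909 with library size alone (454 higher and 455 lower) and 1345 by DESeq2, and ran from 224 (without WT 3) to 1440 (without WT 1) when 1 library was left out; that of called members ran from 1 to 2. The mouse count (2) was 30 by DESeq2 and 117 with no filter, and ran from 0 to 17 without 1 library; called members numbered 1 with no filter and 0 otherwise.

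The shared replicate numbers showed no clear pairing of the samples, which 3 libraries a group cannot exclude. Deviations of same-numbered libraries correlated at 0.216, -0.113 and 0.126 in human and 0.143, 0.0159 and -0.00485 in mouse. Not every library correlated best with its own number. With the replicate block, 899 human genes and 2 members were called, and 21 mouse genes and 0 members. VAX1 then had an adjusted p of 0.0249.

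Fold changes near 0 changed sign in 16 of the 420 alternative values of named genes. With the replicate block VAX2 stood at -0.0529, and with library size alone mouse Otx1 at -0.00624. When 1 library was left out, the fold changes on the log2 scale ran from -0.18 to 0.854 for RAX, from -0.556 to 0.281 for VAX2, from -0.219 to 0.531 for LHX2 and from -0.0822 to 0.618 for NR2E1; in mouse they ran from -0.194 to 0.298 for Vax2, from -0.00198 to 0.346 for Six2 and from -0.133 to 0.136 for Otx1. The cause of these changes was not tested. Counts limit SIX6, RAX and VAX2 in human and Six6, Vax1 and Vax2 in mouse, which had few reads.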
